A study of Mus musculus with 24 samples.

Results

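SFRP2, NTF3, SCUBE3, INHBA, ITGBL1 and IGFBP7 encode proteins that cells release into their surroundings, and they were described here across 8 tissues of the mouse, from their levels in the aortic wall to those in the 7 other organs. These 6 genes were taken by name from a table of 7493 genes, and were chosen by their FPKM values in aorta, which were high against the other tissues. Their aortic excess is therefore given as a description with no test. The mice carried SENCR-BAC, a bacterial artificial chromosome with the human long non-coding RNA SENCR, and all 8 tissue groups shared this transgene. The names of all 24 libraries begin with SR-KI instead of SENCR-BAC, and what that label stands for was not worked out here. Aorta was sampled by 3 libraries, as were heart, lung, liver, kidney, stomach, spleen and brain, 24 in all, and no group without the transgene was analysed here. The sources used here give neither strain, age and sex nor which libraries came from the same animal, so p-values measure the spread between these libraries. Each tissue was sequenced whole.

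Secreted factors act on the cell that makes them and on its neighbours, often after binding to the extracellular matrix. The wall of the aorta holds smooth muscle cells and fibroblasts in a dense elastic and collagenous matrix, and its cells are known to release modulators of the Wnt, TGF-beta and IGF pathways into it. SFRP2, secreted frizzled-related protein, carries a frizzled-like domain that binds Wnt ligands. NTF3, neurotrophin-3, is the growth factor of sensory and sympathetic neurons and the ligand of the receptor tyrosine kinase TrkC, encoded by NTRK3. SCUBE3 belongs to a small family of secreted and cell-surface glycoproteins with CUB and EGF-like domains, whose relative SCUBE2 helps to release hedgehog ligands. INHBA encodes the beta A subunit that forms activin A, a ligand of the TGF-beta family. ITGBL1 is a secreted protein with EGF-like repeats resembling those of integrin beta subunits, and IGFBP7 is a matrix-associated protein related to the IGF-binding proteins.

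Levels are FPKM, fragments scaled to gene length and to library depth, as the authors deposited them. The mouse reads had been counted on a human genome build, so a level depends on how much of a gene's sequence mouse and human share, and each gene was compared only with itself across tissues. Between 193900 and 642307 reads per library were assigned, and whole read numbers could be worked out from the FPKM steps for 7493 of 7493 genes. Aorta replicates 1 and 3 stood apart, with 363 and 216 reads of mitochondrially encoded genes against 6 in aorta replicate 2 and at most 19 in any other library. ALB, RPL38 and RPS15A likewise had reads in aorta replicates 1 and 3 and none in replicate 2, and ALB, the albumin gene of hepatocytes, had 37 reads in aorta and 1 in liver. Outside aorta too, ALB had no read in any replicate 2, and replicate 3 of each tissue had 1 to 8. Replicate 3 also had the most mitochondrially encoded reads of each tissue outside aorta, from 2 in liver to 19 in spleen. The pattern thus went partly with the replicate number and was strongest in aorta. Reads of human RNA could not be told from mouse reads on a human build, and whether all reads of aorta replicates 1 and 3 came from the mouse was not tested. Aorta replicate 2, with 6 mitochondrially encoded reads and none of the other 3 genes, had 473 FPKM of SFRP2, 121 of NTF3, 9.85 of SCUBE3, 22.1 of INHBA, 11.7 of ITGBL1 and 1350.0 of IGFBP7. The labelled tissues were checked against lists of marker genes. The tissue's own list was highest in it for 7 of 9 smooth muscle genes in aorta, 10 of 10 neuron and glia genes in brain, 8 of 8 cardiomyocyte genes in heart and 4 of 4 tubule genes in kidney. The same held for 5 of 8 hepatocyte genes in liver, 2 of 2 epithelial genes in lung, 3 of 5 leukocyte genes in spleen and 2 of 3 epithelial genes in stomach. In whole tissue, fewer cells of a type and less RNA per cell cannot be told apart.

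None of the motifs searched was found in the promoters of all 6 genes. Mouse promoter sequences were taken from RefSeq on GRCm38.p6, as the 250 bases before each start that its promoter table lists, and the 6 genes matched 7 promoters because Ntf3 has a pair of listed starts. The windows of Igfbp7 and Inhba are shown because, of the 4 windows that overlap no annotated exon, they differ most in base composition. The Igfbp7 window lies at chr5:77408046-77408295 on the minus strand, the Inhba window at chr13:16011601-16011850 on the plus strand, both written 5′ to 3′. The listed Igfbp7 start is the edge of the annotated gene, whereas that of Inhba lies 7595 bases inside the annotated gene span, so its window is internal. Capitals mark GC boxes (GGGCGG, either strand) in Igfbp7 and a TATA box (TATAAA) in Inhba.
Igfbp7 promoter: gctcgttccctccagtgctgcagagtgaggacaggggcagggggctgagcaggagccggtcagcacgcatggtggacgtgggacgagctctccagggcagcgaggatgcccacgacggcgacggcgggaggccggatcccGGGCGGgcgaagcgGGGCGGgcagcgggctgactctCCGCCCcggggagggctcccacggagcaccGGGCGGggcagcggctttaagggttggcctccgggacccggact
Inhba promoter: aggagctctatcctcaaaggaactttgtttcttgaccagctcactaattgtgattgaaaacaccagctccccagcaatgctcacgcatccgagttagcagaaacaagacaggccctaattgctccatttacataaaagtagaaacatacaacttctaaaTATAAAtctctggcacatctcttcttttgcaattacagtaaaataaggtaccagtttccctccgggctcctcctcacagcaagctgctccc
The Igfbp7 window was 74.0% G and C, held 26 CpG dinucleotides and had 4 GC boxes. The Inhba window was 43.2% G and C, held 3 CpG dinucleotides and had its TATAAA starting 91 bases before the listed start. The median over the 7259 promoters of genes in the table was 61.2% G and C with 17 CpG dinucleotides. Over both strands, the GC box was found in 4 of the 7 promoters and in 59.7% of all the table's promoters. TATAAA was found in 1 of 7 against 6.49%, the Smad motif CAGAC in 3 of 7 against 38.4%, and the E-box CANNTG in 3 of 7 against 55.6%. The AP-1 motif TGANTCA (3.95% of the table's promoters), the TEAD motif CATTCC (10.1%) and the CArG box (1.31%) had no match in the 7 windows. A match is a description of letters in a window and not of binding.

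Mean aortic levels ran from 10.6 FPKM for SCUBE3 to 1321 for IGFBP7, a span that is not a ranking of the genes. For each of the 6, the lowest aortic library lay above the highest of the 21 other libraries, a pattern that 2.56% of the 4260 genes tested had and that the choice of these genes fixed. The stricter pattern of a difference from every other tissue taken singly, which 1.64% of genes had, uses the same values that chose the 6, so nothing is read from it for them. The gap was widest for SCUBE3, at 9.85 FPKM in the lowest aortic library against 0.630 in brain replicate 3, a ratio of 15.6. It was 14.7 for SFRP2, 8.66 for ITGBL1 and 4.198 for NTF3. For INHBA the ratio was 1.65, against liver replicate 1, and for IGFBP7 it was 1.40, against kidney replicate 3. The share of all recovered reads that fell in aorta ran from 96.2% for ITGBL1 to 48.4% for IGFBP7. All 6 passed the filter of at least 1 FPKM in at least 3 libraries, SCUBE3 through its 3 aortic libraries alone and ITGBL1 with 1 library outside aorta.

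**Figure D1:**
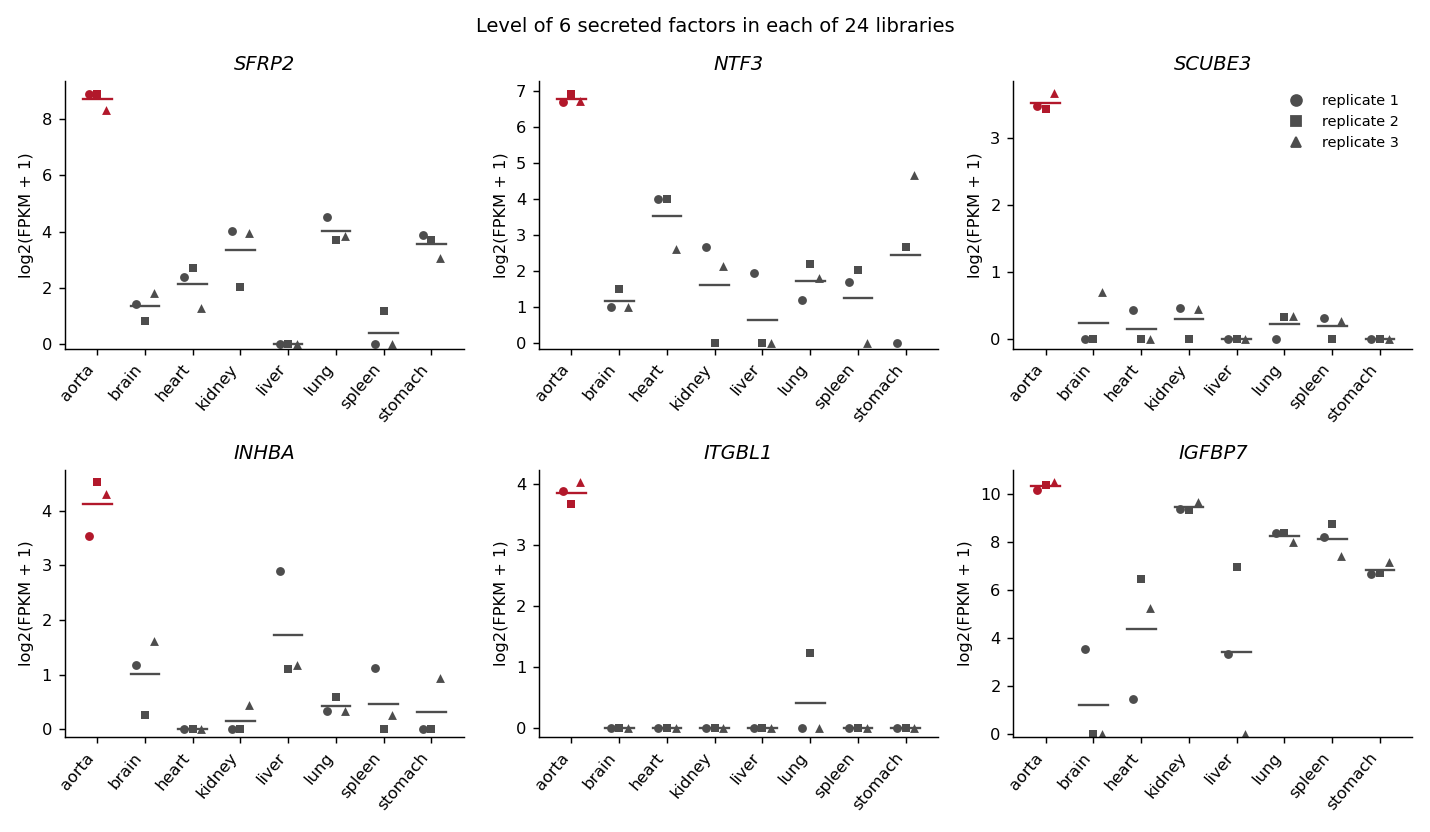
Level of each of the 6 genes in each of the 24 libraries on the log2(FPKM + 1) scale, by tissue; symbols are replicates, horizontal lines are tissue means, and aorta is in red. The 3 aortic points lie above every other point in each panel, IGFBP7 has its next highest points in kidney, and ITGBL1 has 1 point above 0 outside aorta.

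The tissues other than aorta were compared next, with no use of the aortic level. SCUBE3 had passed the filter through aorta alone and ITGBL1 with 1 other library, so a call outside aorta was all but barred for them. limma's F test over the 7 non-aortic tissue means (adjusted p under 0.05, range of tissue means 1 or more, as log2(FPKM + 1)) called 3 of the 6, SFRP2, INHBA and IGFBP7, beside 73.9% of all genes tested, a share that the 6 cannot be set against because of that filter. Setting each of these tissues against the average of the remaining 6 gave 12 calls in 42 comparisons of a gene and a tissue, all of which share libraries. In lung SFRP2 and IGFBP7 were higher (2 of 6, 13.4% of all genes tested), and in kidney the same 2 genes (9.62%). limma called 0 of 6 lower in lung (4.53%) or kidney (8.05%), and 0 of 6 were lower there at an unadjusted p under 0.05. In liver both were lower (17.5%), while INHBA was higher (1 of 6, 9.08%). Spleen had less SFRP2 (1 of 6, 13.9%) and more IGFBP7 (11.3%), and brain had less IGFBP7 (10.9%). SFRP2 was higher in stomach (1 of 6, 7.7%) and NTF3 in heart (1 of 6, 6.76%). With 6 genes, counts of 1 or 2 are too small to be read against these shares.

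**Figure D2:**
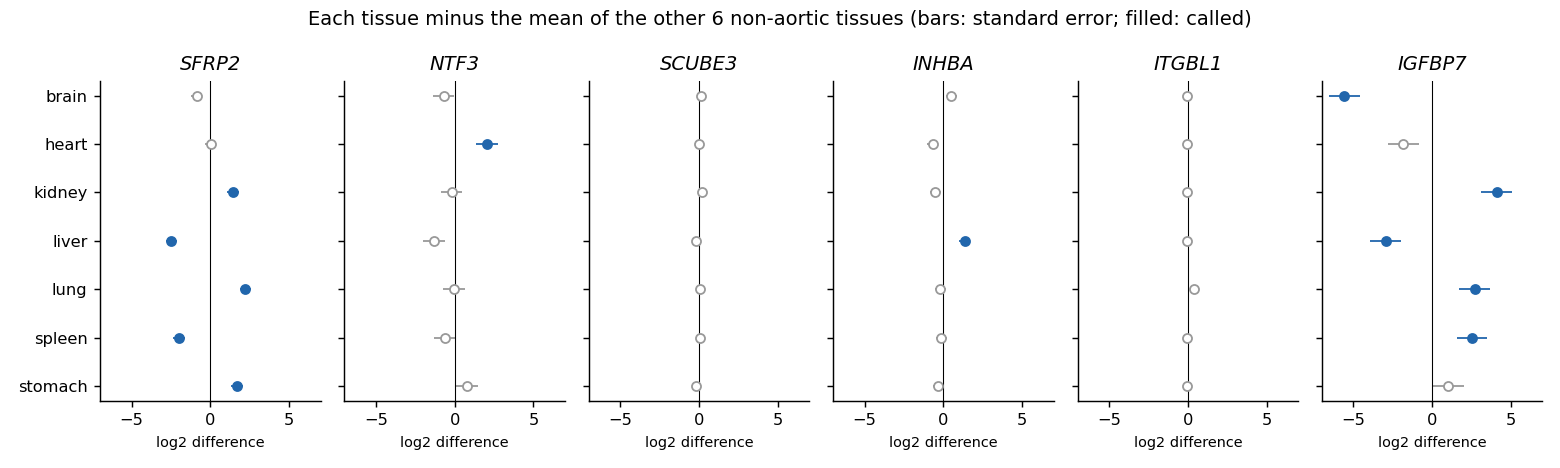
Difference of each non-aortic tissue from the mean of the other 6 non-aortic tissues for the 6 genes, on the log2(FPKM + 1) scale; horizontal bars are standard errors and filled points are called by limma. SFRP2 has 5 filled points and IGFBP7 5, NTF3 and INHBA have 1 each, and SCUBE3 and ITGBL1 lie near 0 throughout.

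SFRP2, the Wnt-binding protein, was at 468, 473 and 319 FPKM in the 3 aortic libraries (420.1 ± 87.4, SD, n = 3). Lung followed at 21.7, 12.1 and 13.5 FPKM, stomach at 13.7, 12.1 and 7.42 and kidney at 15.1, 3.12 and 14.4. These 3 tissues overlapped each other and lay far under aorta. Heart had 4.22, 5.56 and 1.43 FPKM and brain 1.72, 0.779 and 2.53. Spleen had a single read in replicate 2 (1.301 FPKM), and liver had none in 3 libraries. Neighbours in this order overlapped from lung down to liver. Mean FPKM in aorta was 26.6 times that in lung (95% counting interval 19.9 to 37.1), and at least 172.7-fold higher than in liver, where 3 reads over the 3 libraries set the limit. The fitted difference between aorta and the mean of the other 7 tissues was 6.58 (SE 0.37) on the log2(FPKM + 1) scale.

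Among the other 7 tissues SFRP2 still differed (limma F test, adjusted p = 4.3e-07), and it was detected chiefly in lung, stomach and kidney. Lung exceeded the mean of the other 6 by 2.23 (SE 0.37, limma adjusted p = 8.47e-05), with its 3 libraries above every library of heart, brain, spleen and liver. Stomach exceeded it by 1.68 (limma adjusted p = 0.00168), again above every library of those 4 tissues. Kidney exceeded it by 1.42 (limma adjusted p = 0.00524), a call that rested on replicates 1 and 3, since replicate 2 lay within the range of heart. Without kidney replicate 1 the adjusted p was 0.0722 and without replicate 3 it was 0.0674, in a range of 0.000275 to 0.0722 over all alternatives. Liver (-2.47, limma adjusted p = 1.71e-05) and spleen (-2.00, limma adjusted p = 0.000192) were lower. Brain differed by -0.87 (limma adjusted p = 0.0579) and heart by 0.01 (0.980).

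NTF3, the TrkC ligand, was at 102, 121 and 105 FPKM in aorta (109 ± 9.96, SD, n = 3; 231 reads). Heart followed at 15.1, 14.9 and 5.10 FPKM and stomach at 0, 5.38 and 24.3. Stomach thus ran from no read in replicate 1 to the highest value outside aorta in replicate 3, and overlapped heart. Kidney had 5.39, 0 and 3.43 FPKM, lung 1.29, 3.604 and 2.48 and spleen 2.28, 3.10 and 0. Brain had 1.03, 1.86 and 1.00 FPKM and liver a single read in replicate 1 (2.85 FPKM). From heart down, each tissue overlapped the next. Aorta was 9.34 times heart by mean FPKM (95% counting interval 5.96 to 15.3), and its fitted excess over the other 7 tissues was 5.01 (SE 0.67) on the log2 scale. The 7 other tissues did not pass limma's F test (adjusted p = 0.0919, 0.00594 to 0.259 over the alternatives). They passed it without liver replicate 1 (0.0494), stomach replicate 1 (0.00594) or stomach replicate 3 (0.0443). Heart alone was called higher than the other 6 (2.06, SE 0.68, limma adjusted p = 0.0174). That call ended without heart replicate 1 (0.0903) or 2 (0.0895), over a range of 0.00369 to 0.0903.

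SCUBE3, the CUB and EGF domain protein, was at 10.2, 9.85 and 11.7 FPKM in aorta (10.6 ± 0.998, SD, n = 3; 107 reads). The 21 other libraries held 10 reads between them. The most in a library were 3 reads in brain replicate 3, at 0.630 FPKM, and 13 of the 21 libraries had none. Liver and stomach had no read, which makes aorta at least 17.5-fold and 25.4-fold higher by the limit of 3 reads over 3 libraries. Kidney, next by mean, had 2 reads, and the ratio of aorta to kidney was 43.3 (95% counting interval 11.5 to 355). The fitted aortic excess was 3.38 (SE 0.16) on the log2(FPKM + 1) scale, which understates a ratio at such low levels. No order among the 7 other tissues could be read at this depth (limma F test, adjusted p = 0.721).

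INHBA, the activin A subunit, was at 10.7, 22.1 and 18.7 FPKM in aorta (17.2 ± 5.85, SD, n = 3; 176 reads). Liver followed at 6.49, 1.15 and 1.27 FPKM and brain at 1.27, 0.192 and 2.08. The high liver value came from replicate 1 alone, and the rest of liver overlapped brain. Spleen had 1.18, 0 and 0.203 FPKM and lung 0.267, 0.497 and 0.256. Stomach (0.913 FPKM in replicate 3) and kidney (0.355 FPKM in replicate 3) were above 0 in 1 library each. Heart had no read, which makes aorta at least 49.5-fold higher. Aorta was 5.78 times liver by mean FPKM (95% counting interval 3.40 to 10.5), and its fitted excess over the 7 tissues was 3.54 (SE 0.34). Among those 7 INHBA differed (limma F test, adjusted p = 0.0206), with liver higher than the other 6 by 1.34 (SE 0.34, limma adjusted p = 0.00318). Both calls rested on liver replicate 1. Without it the F test gave an adjusted p of 0.0865 (0.00514 to 0.108 over the alternatives). The liver difference was then 0.75 with an adjusted p of 0.0793 (0.00168 to 0.0793 over the alternatives).

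ITGBL1, the integrin-like secreted protein, was at 13.8, 11.7 and 15.4 FPKM in aorta (13.7 ± 1.85, SD, n = 3; 51 reads). Outside aorta it had 2 reads, both in lung replicate 2 (1.36 FPKM). Brain, heart, kidney, liver, spleen and stomach had none. Their limits of 3 reads over 3 libraries make aorta at least 24.6-fold higher than brain and at least 8.35-fold higher than liver, the shallowest tissue. The ratio to lung was 30.2 (95% counting interval 7.67 to 247). The fitted aortic excess was 3.81 (SE 0.17), and the 7 other tissues were not separated (limma F test, adjusted p = 0.539, 0.0218 to 1 over the alternatives). The lowest of these came from limma's voom method on the recovered reads, the 1 alternative that called a difference.

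IGFBP7, the matrix-associated IGF-binding protein relative, had the smallest share of its own reads in aorta of the 6. Aorta had 1161, 1350.0 and 1452 FPKM (1321 ± 148, SD, n = 3; 2653 reads) and kidney 677, 644 and 829 (716 ± 98.7; 1146 reads). The groups did not overlap, and aorta was 1.84 times kidney (95% counting interval 1.71 to 1.97). Lung had 334, 339 and 259 FPKM and spleen 295, 433 and 169, and the pair overlapped. Stomach followed at 101, 104 and 142 FPKM, under every lung and spleen library. In the last 3 tissues replicates disagreed, with 9.004, 123 and 0 FPKM in liver, 1.76, 87.0 and 37.6 in heart and 10.8, 0 and 0 in brain. The coefficient of variation was 156% in liver, where counting error alone gives 26.0%, and 102% in heart, where it gives 20.5%.

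The fitted excess of IGFBP7 in aorta over the mean of the other 7 tissues was 4.40 (SE 0.97), and the 7 tissues differed among themselves (limma F test, adjusted p = 4.49e-05). Kidney was 4.10 above the mean of the other 6 (SE 0.98, limma adjusted p = 0.00266) and brain was 5.57 below it (difference -5.57, limma adjusted p = 6.04e-05), and both kept their call in 37 of 37 settings. Lung was 2.70 above it (limma adjusted p = 0.0368), called in 28 of 37 settings, and spleen 2.53 above it (limma adjusted p = 0.0414), called in 23 of 37. The lung call ended without any 1 of the 3 lung libraries or without brain replicate 3, and the adjusted p reached 0.120. The spleen call ended without any 1 of the 3 spleen libraries, brain replicate 2 or 3, kidney replicate 2, lung replicate 3, or stomach replicate 1 or 2, and the adjusted p reached 0.155. Liver was below the mean of the other 6 (-2.96, limma adjusted p = 0.0175), but not without liver replicate 1 (0.0598) or replicate 3 (0.309), which is the upper end of the range from 0.000543. Stomach (1.03, limma adjusted p = 0.481) and heart (-1.82, 0.133) were not called.

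An antisense gene, IGFBP7-AS1, was in the table as well, and whether reads were counted by strand is not known from the sources used here. Reads of the pair therefore cannot be told apart with certainty. IGFBP7-AS1 was at 45.1, 46.8 and 43.4 FPKM in aorta and 65.1, 60.6 and 45.6 in kidney, so that the tissues overlapped and kidney had the higher mean, unlike IGFBP7. Lung had 23.4, 24.6 and 2.99 FPKM and spleen 20.6, 24.3 and 7.11. In liver the antisense gene was above 0 only in replicate 2 (16.7 FPKM), the library with 123 FPKM of IGFBP7. Over the 8 tissue means of log2(FPKM + 1) the pair had a Pearson r of 0.948, on levels that share libraries and possibly reads.

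The 3 aortic libraries agreed within counting error for NTF3, SCUBE3 and ITGBL1 and not for the other 3 genes. The coefficient of variation over the 3 libraries was 9.11% for NTF3, 9.42% for SCUBE3 and 13.6% for ITGBL1, where counting alone gives 11.4%, 16.7% and 24.2%. For SFRP2 it was 20.8% against 5.33%, with replicate 3 low at 264 reads against 388 and 406. For INHBA it was 34.1% against 13.1%, with replicate 1 low at 36 reads against 77 and 63. For IGFBP7 it was 11.2% against 3.36%, with replicate 1 lowest. The low library was thus not the same for the 3 genes. All intervals here cover counting error only, since PCR copies of a molecule could not be told from separate molecules.

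**Figure D3:**
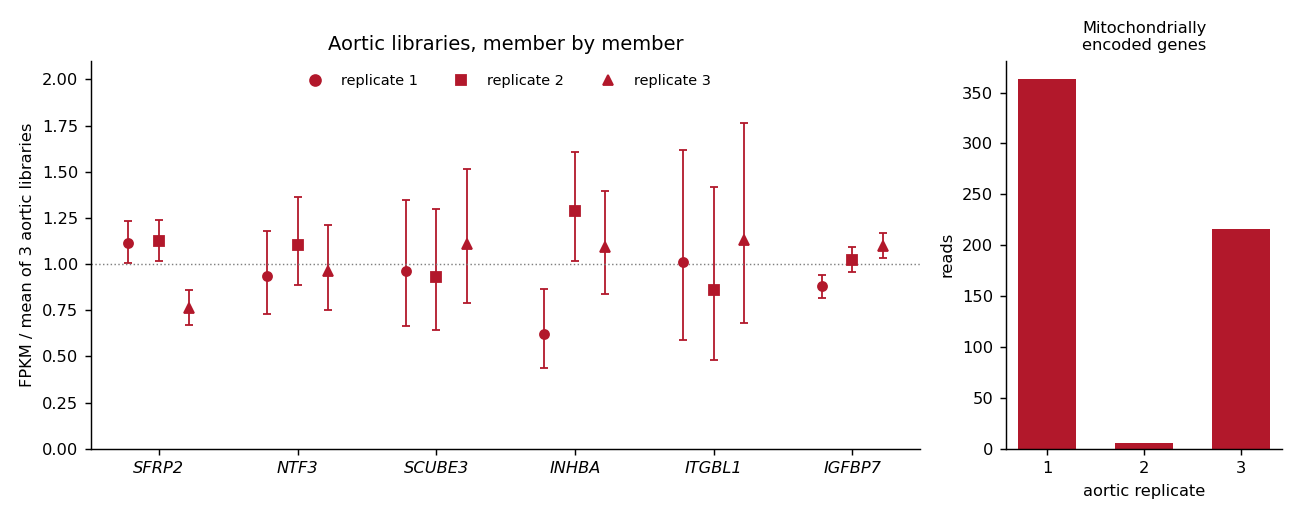
Left, level of each of the 6 genes in each aortic library relative to the mean of the 3, with exact 95% Poisson intervals of the read number; right, reads of mitochondrially encoded genes in the same 3 libraries (363, 6 and 216). SFRP2 is low in replicate 3 and INHBA in replicate 1, while the intervals of NTF3, SCUBE3 and ITGBL1 overlap across replicates.

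Other genes of the same pathways were then compared between aorta and the mean of the other 7 tissues, from 9 lists of 171 genes, 96 of which were in the table and 60 of which passed the filter. By the same thresholds in limma, 23 of the 60 were higher in aorta and 3 were lower, against 9.58% and 8.19% of all genes tested. The 23 include ITGA5, which passed the filter only through aorta and so had to be higher. The median difference over the 60 genes was 0.38, and over all genes -0.18. The aortic libraries are those in which the 6 secreted factors were chosen. The lists too were chosen with earlier results of these data known. The counts are therefore a description, and no excess of these pathways in aorta is read from them. With aorta replicate 2 as the only aortic library, assumed to vary like the other tissues, 15 of the 23 were still called higher and 1 of the 3 lower.

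Among modulators of Wnt signalling SFRP1, a relative of SFRP2, was the 1 gene called of 6 tested (1.91, SE 0.34, limma adjusted p = 0.000185). It was at 52.4, 49.98 and 17.8 FPKM in aorta, and kidney was higher at 68.2, 56.6 and 54.2, so SFRP1 was not highest in aorta as SFRP2 was. Of 5 Wnt ligands tested 1 was called, WNT11, lower in aorta (-1.15, limma adjusted p = 0.0477), and this call was kept in 12 of 37 settings and ended without any 1 of the 3 aortic libraries or of 14 others (adjusted p 0.0194 to 0.579). WNT11 was at 1.26 FPKM by mean in aorta, against 45.5 in stomach and 13.9 in lung. Brain (0.431), spleen (1.04) and liver (0) had less than aorta. Of 11 receptors and pathway targets 5 were higher and 1 was lower. FZD2, a Wnt receptor, had the largest difference of these, with 47.2, 40.0 and 46.6 FPKM in aorta and 14.9, 14.4 and 18.1 in lung, the next tissue (3.71, SE 0.48, limma adjusted p = 4.66e-06). FZD7, FZD8, FZD4 and FZD1 were higher by 1.66, 1.40, 1.36 and 1.28, but were not called with aorta replicate 2 alone (limma adjusted p = 0.200, 0.395, 0.116 and 0.0564). FZD8 was also not called without aorta replicate 1 or 3, and FZD1 not without aorta replicate 2. TCF7, a transcription factor of the pathway, was lower (-1.01, limma adjusted p = 0.00102) in 23 of 37 settings. Its highest mean was in spleen, at 19.4 FPKM against 0.111 in aorta. Its difference was smaller than 1 when any of 12 single libraries was left out, aorta replicates 1 and 2 among them. FZD4 and FZD7 had their highest mean in kidney and in liver.

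NTRK3, which encodes the receptor of NTF3, was called and had the smallest adjusted p of the 60 pathway genes, while BDNF was the other neurotrophin-family gene tested. It was at 26.4, 26.3 and 40.9 FPKM in aorta (31.2 ± 8.40, SD, n = 3; 1238 reads) and 10.8, 9.60 and 9.17 in brain (9.85 ± 0.837). Every other tissue had at most 0.816 FPKM by mean, and liver had no read. Aorta exceeded the mean of the other 7 by 4.18 (SE 0.20, limma adjusted p = 2.18e-12), and the call was kept with aorta replicate 2 alone (3.98, adjusted p = 3.46e-08, the upper end of the range from 2.77e-16). Ligand and receptor were both highest in aorta, but differed in second place, which was heart for NTF3 and brain for NTRK3. The NTF3 side of this was fixed by the choice of the gene, so no match of the pair is read from it. BDNF, a neurotrophin of the same family as NTF3, was not called (-0.07, limma adjusted p = 0.886) and was highest in brain.

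**Figure D4:**
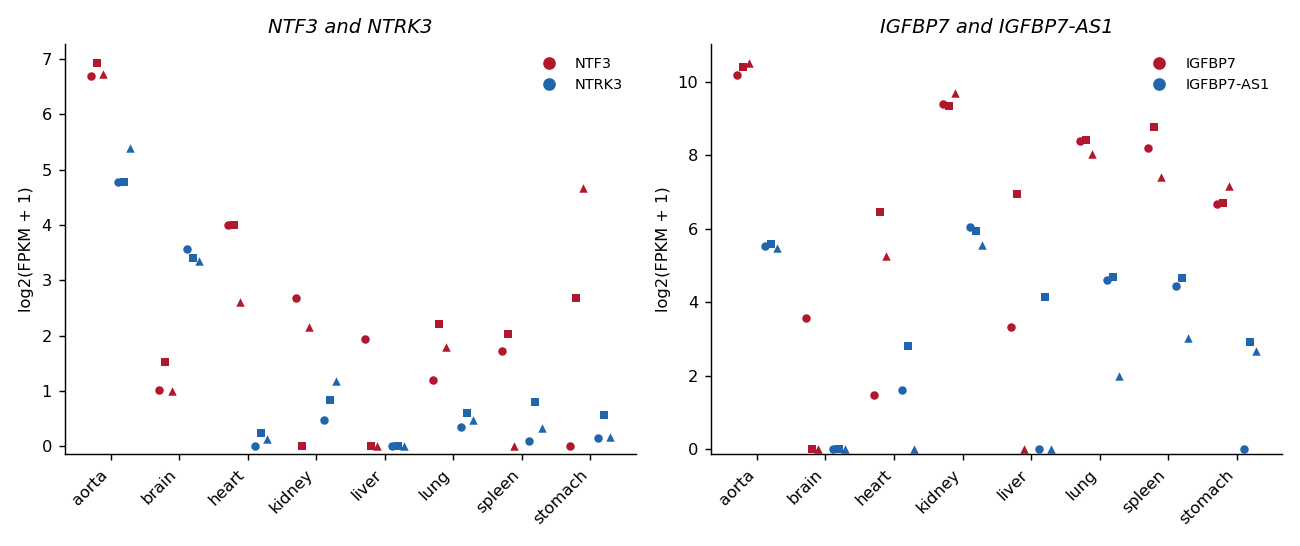
Levels of NTF3 and its receptor gene NTRK3 (left) and of IGFBP7 and its antisense gene IGFBP7-AS1 (right) in each library, log2(FPKM + 1), by tissue. NTRK3 is highest in aorta, with its next highest mean in brain. NTF3, chosen for its high level in aorta, has its next highest mean in heart. The kidney libraries of IGFBP7-AS1 overlap its aortic libraries.

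Of 7 hedgehog and SCUBE genes tested, HHIP and SMO were higher in aorta and SCUBE2 lower. HHIP, a membrane protein that binds hedgehog ligands, was at 9.45, 12.2 and 11.2 FPKM in aorta and 2.18, 5.67 and 3.13 in lung, the next tissue (2.90, SE 0.27, limma adjusted p = 6.75e-08). SMO, the hedgehog signal transducer, was above the average of the other tissues by 1.25 (limma adjusted p = 0.00392), but not with aorta replicate 2 alone (0.319), and was highest in kidney. SCUBE2, the relative of SCUBE3, was listed at 0 in all 3 aortic libraries. It was at 13.02, 16.3 and 21.4 FPKM in heart and 7.68, 31.6 and 19.2 in lung, both of which had 1 read or 2 of SCUBE3 in all. Brain, kidney, liver, spleen and stomach had at most 0.484 FPKM of SCUBE2 by mean. Its near absence was therefore not particular to aorta, and the average of the other tissues was carried by heart and lung. SCUBE2 was lower in aorta by 1.37 (difference -1.37, SE 0.27, limma adjusted p = 0.000499), though not with aorta replicate 2 alone (adjusted p = 0.0564, the upper end of the range from 2.24e-05). Aorta thus had SCUBE3 without SCUBE2, and heart and lung the reverse. The SCUBE3 side of this was fixed by the choice of the gene, so no opposite pattern is read from it.

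Of 5 activin and follistatin genes tested 2 were higher in aorta, and both encode follistatin-family proteins rather than activin subunits. FST, the secreted antagonist that binds activin, was at 10.2, 3.69 and 8.31 FPKM in aorta and higher by 1.82 (SE 0.39, limma adjusted p = 0.00109), but with aorta replicate 2 alone the adjusted p was 0.303. FSTL1, a secreted glycoprotein, was at 1.38, 7.33 and 4.15 FPKM and higher by 1.85 (SE 0.29, limma adjusted p = 3.98e-05). Both overlapped another tissue, with FST at 4.90 FPKM in brain replicate 3 and FSTL1 at 2.02 in lung replicate 2. INHBB, the other beta subunit tested, was at 0.994 ± 1.15 FPKM in aorta (SD, n = 3) and was not called (0.10, limma adjusted p = 0.847).

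Of 16 TGF-beta and BMP genes tested 8 were higher in aorta. TGFB3, a TGF-beta ligand, was at 72.8, 90.5 and 93.9 FPKM in aorta and 35.0, 36.6 and 24.5 in lung, the next tissue (4.19, SE 0.31, limma adjusted p = 3.41e-09). LTBP1, which holds latent TGF-beta in the matrix, was at 17.4, 18.8 and 24.4 FPKM in aorta and 3.76, 3.20 and 2.70 in lung (3.44, SE 0.33, limma adjusted p = 1.01e-07). Neither overlapped between aorta and the next tissue. BMP4, a BMP ligand, was at 679, 610.4 and 258 FPKM in aorta and 253, 298 and 329 in lung, so that aorta replicate 3 lay within the range of lung (2.97, SE 0.31, limma adjusted p = 2.77e-07). SMAD6, an intracellular inhibitor of BMP signalling, was above the average of the other tissues by 2.88 (SE 0.27, limma adjusted p = 6.81e-08), although lung had more, 206 ± 16.1 FPKM against 88.9 ± 12.5 (SD, n = 3). These 4 calls were kept in 37 of 37 settings. LTBP3, LTBP4, SMAD7 and NOG made up the 8. LTBP4 and SMAD7 had their highest mean in lung and NOG in brain, so these genes were not highest in aorta. LTBP4 was not called without aorta replicate 3, SMAD7 not without replicate 1, and NOG not without replicate 2 or 3. With aorta replicate 2 alone, neither LTBP4 nor NOG was called. TPM scaling ended the calls of SMAD7 and NOG as well.

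Of 9 integrin genes measured, 2 passed the filter, ITGB1 and ITGA5, and ITGB1 was called higher in aorta. ITGB1, the common beta subunit, was at 82.1, 114 and 117 FPKM in aorta, 52.4, 46.9 and 68.1 in heart and 24.3, 71.6 and 53.2 in lung (4.17, SE 0.64, limma adjusted p = 3.38e-05). The aortic libraries lay above all others. Spleen had 7.61, 15.5 and 18.8 FPKM. Brain had no read, kidney 1, liver 4 in replicate 2 alone and stomach 22 in replicate 3 alone. The size of the difference therefore leans on tissues near 0. How far the human build sets these low values was not tested. ITGA5, an alpha partner of that subunit, was at 1.12, 2.69 and 2.23 FPKM in aorta and had 2 reads elsewhere. It passed the filter only through aorta and so had to come out higher there, and no test is given for it. Of 6 IGF-pathway genes 2 were higher, and both are matricellular proteins of the CCN family with an IGF-binding-like domain rather than IGFs. CCN1 was at 434, 813 and 889 FPKM in aorta and up to 366 in lung (3.91, SE 0.65, limma adjusted p = 8.24e-05). In kidney CCN1 ran from 14.6 and 67.1 FPKM to 356 in replicate 3. Replicate 3 had the most CCN1 in every tissue, so its level went partly with the replicate number. CCN2 was at 1.03, 8.95 and 15.5 FPKM in aorta and up to 7.75 in lung (2.30, SE 0.49, limma adjusted p = 0.00106), and its aortic libraries overlapped those of lung. IGFBP4 and IGFBP5, the IGF-binding proteins tested, were at 0.728 and 0.506 FPKM in aorta by mean and were not called (limma adjusted p = 0.307 and 0.707).

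**Figure D5:**
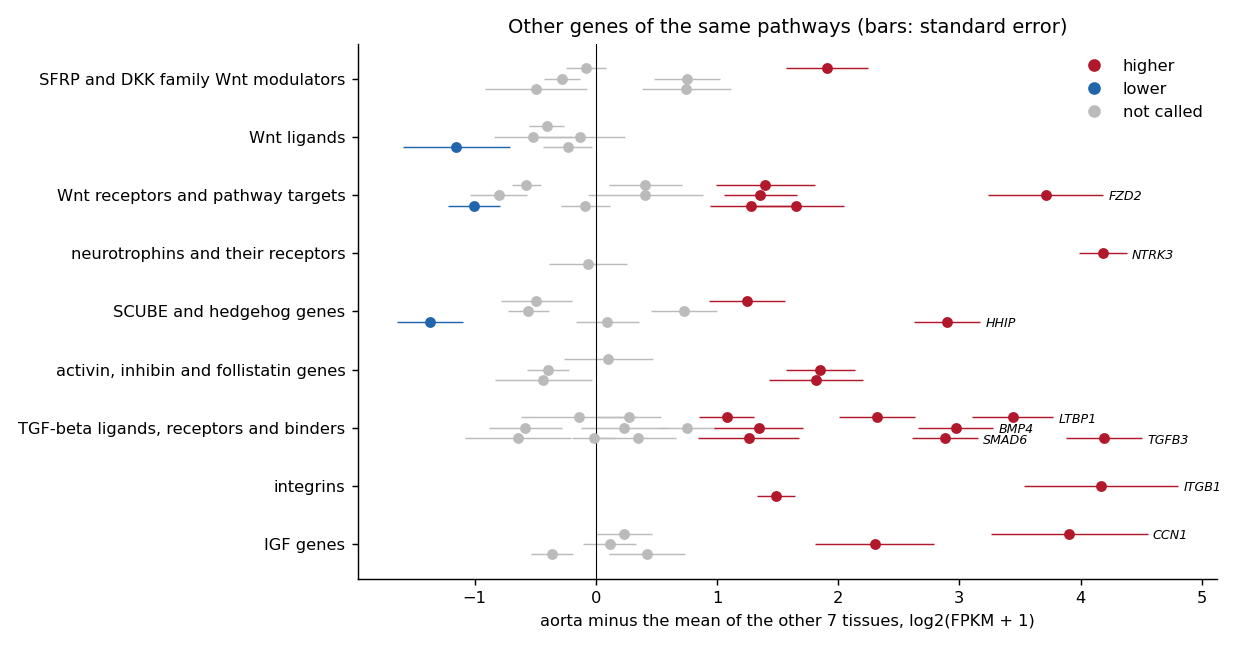
Difference between aorta and the mean of the other 7 tissues for the 60 pathway genes tested, log2(FPKM + 1), 1 row per list; bars are standard errors and colours give the limma call (23 higher, 3 lower, 34 not called). Named points differ by more than 2.6, and TGFB3, NTRK3 and ITGB1 lie farthest to the right.

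The genes whose pattern over the 8 tissue means was most like that of each factor were listed as a description, since all points share the same libraries. For SCUBE3 these were FOXC2 and SMOC1 (Pearson r 0.996 each) and VWC2 (0.996), and for ITGBL1 FOXC2, SMOC1 (0.994 each) and SCUBE3 (0.993). FOXC2, a mesenchymal transcription factor, and SMOC1, a matrix protein, had 7 and 9 reads in aorta and none elsewhere, so the likeness is that of genes read only in aorta. Without the aorta, over 7 tissue means, SCUBE3 and ITGBL1 had an r of 0.237. For SFRP2 the most alike were ATP6 (0.967), TWIST1 (0.966) and SIX4 (0.951). TWIST1, a mesenchymal transcription factor, was at 121, 99.8 and 109.5 FPKM in aorta and at most 8.92 in any other library. For NTF3 they were CYTB (0.983), CCDC80 (0.973) and PTMA (0.964), for INHBA RPL38 (0.982), OMD (0.945) and RPS15A (0.931), and for IGFBP7 IGFBP7-AS1 (0.948), CDKN2C (0.925) and HOXB4 (0.920). ATP6 and CYTB are mitochondrially encoded, and with RPL38 and RPS15A they had no read in aorta replicate 2. With that library as the only aortic one, the most alike were TWIST1 for SFRP2 (0.971), CCDC80 for NTF3 (0.976), PICK1 for INHBA (0.967) and MIER1 for IGFBP7 (0.967).

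Among cell type markers, the fibroblast and matrix sum was highest in aorta, and so was the erythroid sum, on 1 read. The aortic level of the 6 genes was fixed by their choice, so no likeness to a list is read from it. The smooth muscle sum was highest in heart, the endothelial in lung (25.4 FPKM by mean) and the adipocyte in stomach (26.3). The part of any cell type in the levels of the 6 genes was not tested. The summed level of 9 fibroblast and matrix genes was 436 to 455 FPKM in aorta, 69.0 to 139 in kidney, 74.1 to 95.3 in lung and 40.9 to 50.9 in stomach, with PDGFRA at 0 in aorta and FBLN5, an elastic fibre protein, its most abundant member (231 ± 26.0 FPKM, SD, n = 3). The sum of 9 smooth muscle genes, led by TPM1, was 1224 to 1507 FPKM in aorta with no member at 0. It was 1243 to 1616 in stomach, overlapping aorta, and 590.0 to 992 in lung. Heart had the highest smooth muscle sum (18927 to 21076 FPKM), since TPM1 is also a cardiac gene. TPM1 had 19876 of the 19921 FPKM in heart by mean. Of the 9 smooth muscle genes, 7 were highest in aorta. In aorta, 4 endothelial genes summed to 4.68 to 10.01 FPKM with KDR and SOX18 at 0, and 2 adipocyte genes to 2.73 to 15.7 with LPL at 0. Cardiomyocyte genes summed to 25.2 to 96.8 FPKM with TNNT2, TNNI3 and TTN at 0. Leukocyte genes summed to 6.25 to 20.3 FPKM with CD3E, CSF1R and CORO1A at 0. Skeletal muscle (0 to 2.86), cartilage and bone (0 to 0.412), mesothelial (0 to 3.47), erythroid (0 to 4.18) and kidney tubule genes (0 to 0.842) were near 0, and the lung and stomach epithelial genes were at 0. Hepatocyte genes summed to 0 to 41.7 FPKM, of which ALB had 11.6, 0 and 27.5 in the 3 aortic libraries.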

How the data were processed

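Per the labels' protocols, TRIzol was used for RNA extraction and the VAHTS Universal V10 kit for the libraries. Per the submitters' processing notes the tools were fastp, HISAT2 and HTSeq, with the human build GRCh38.p13. Tool versions, annotation and strand setting were not given in the sources used here. Values are FPKM per gene and library as the authors deposited them, and 0 columns of other samples were present. The members and lists were chosen with earlier results of these data known.

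Reads per gene were worked out from the FPKM steps (relative tolerance 1e-06, absolute tolerance 0.02), and they gave counting intervals (exact, 95%) and the limit for a count of 0 (3 reads over the 3 libraries of a tissue). Genes at 1 FPKM or more in at least 3 libraries (4260) were fitted as log2(FPKM + 1) with limma 3.58.1 (trended variance, 8 tissue means, R 4.3.3) and Python 3.11.15. A gene was called at a Benjamini-Hochberg adjusted p under 0.05, taken over all 4260 genes, with a difference of at least 1. No 2 libraries of a tissue agreed within counting noise. Named were the 6 factors, up to 4 called genes of each pathway list with the largest difference, the 3 genes most alike to each factor and the highest gene of each marker list in aorta. FZD1, TCF7, BDNF, INHBB, IGFBP4, IGFBP5, LTBP3, LTBP4, SMAD7, NOG and the marker genes at 0 were named after their values were seen. The summed level of 1 marker list in aorta is not reported here. The fits were tested on simulated data.

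Alternatives were pseudocounts of 0.1 and 5, no filter, a filter of 5 FPKM, no minimum difference, TPM and median-ratio scaling, mitochondrially encoded genes left out, no variance trend, a replicate block, each library left out in turn, and aorta replicate 2 as the only aortic library. The voom fit of the recovered reads, and the likeness with aorta replicate 2 alone, were added after seeing the data.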

Additional observations from a re-analysis of the deposited data

How the results depend on the processing

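Of 576 alternative values of counts and aortic differences, 532 stayed within 1.5 times the count or 1 SD of the value, 44 moved and 0 reversed. Genes higher in aorta (408) were 221 with a pseudocount of 5 and 659 with no minimum difference. Genes lower in aorta (349) were 133 with a pseudocount of 5, 894 with no minimum difference, 576 with TPM scaling and 617 with voom. The share of calls that were higher was 53.9%, against 42.2% with TPM scaling, 61.9% with median-ratio scaling and 43.8% with voom, and the median of all genes moved from -0.18 to -0.36 and -0.09 under the 2 scalings. Pathway genes higher in aorta (23) were 14 with a pseudocount of 5 and 15 with aorta replicate 2 alone. Pathway genes lower in aorta (3) were 1 with median-ratio scaling or aorta replicate 2 alone, 7 with no minimum difference, 6 with voom, and 1 to 3 with single libraries left out. With a pseudocount of 5 limma called 0 of them lower, and 9 were lower at an unadjusted p under 0.05. Genes higher in aorta than in each other tissue (70) were 39 with a pseudocount of 0.1 and 41 with aorta replicate 2 alone. Calls summed over the non-aortic tissues (3489 higher, 3388 lower) were 2011 and 1477 with a pseudocount of 5, and 5315 and 6817 with no minimum difference.

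The size of the aortic difference of the low genes depends on the pseudocount. With 0.1 and 5 it was 7.61 and 5.45 for SFRP2, 5.95 and 1.60 for SCUBE3, 5.45 and 1.94 for INHBA and 6.91 and 1.88 for ITGBL1, and with 5 it was 3.80 for NTF3. TPM scaling and voom gave 4.54 and 5.36 for SCUBE3, 4.39 and 5.08 for INHBA and 5.19 and 4.85 for ITGBL1. With a pseudocount of 5 the stomach, kidney and spleen calls of SFRP2 and both INHBA calls ended, with 0.1 the heart call of NTF3, and with voom the liver call of IGFBP7. The IGFBP7 lung and spleen calls ended with a pseudocount of 0.1 (adjusted p = 0.0915 and 0.0945), no filter (0.0628 and 0.0691), TPM scaling (0.0733 and 0.0961), median-ratio scaling (0.0625 and 0.0577) and aorta replicate 2 alone (0.0529 and 0.0573). NTF3 passed the F test with a pseudocount of 5 (adjusted p = 0.0426) and with median-ratio scaling (0.0321).

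Deviations of same-numbered libraries of different tissues had correlations of -0.0589 to 0.128 (median 0.0241, 84 pairs), against a median of -0.0173 for different numbers, and 21 of 24 libraries correlated best with their own number. This is a hint from the data of a shared deviation, small in size but seen in most libraries. The median pair lay well under 0.1, and the sources used here do not say that the numbers pair libraries, so the main fit had no block. Whether the numbers pair the samples cannot be told from these correlations, and a pairing is not excluded. A replicate block gave 411 higher and 346 lower genes in aorta, 23 and 2 of the pathway genes, WNT11 being lost, and 12 calls of the 6 factors outside aorta were kept in number. Depth limits SCUBE3 and ITGBL1, which had 10 and 2 reads outside aorta.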
